A study of Homo sapiens with 4 samples.

Results

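The insulin-like growth factor axis was followed across parental and vincristine-resistant RD cells through 10 genes taken by name from the deposited table, out of 18375 genes in it. They are the ligand gene IGF2, the receptor genes IGF1R, IGF2R and INSR, and the binding protein genes IGFBP2, IGFBP3, IGFBP4, IGFBP5, IGFBP6 and IGFBP7. All 10 were present in the table and all 10 passed the filter on low values, which kept genes with a normalized count of at least 10 in at least 2 libraries. RD is an established cell line of fusion-negative rhabdomyosarcoma, a childhood tumour with features of skeletal muscle. The parental group comprised 2 libraries of untreated RD cells, and the resistant group 2 libraries of RD cells selected with vincristine, a tubulin-binding drug that disrupts the mitotic spindle. Both groups carry the genotype label WT and were grown in medium with fetal bovine serum. Selection began at 1 to 1.5 nM, a dose lethal to some 80 to 90% of cells, and continued for 9 to 12 months with increases of 10 to 20% until the half-maximal inhibitory concentration had risen at least 100-fold. The labels do not say whether the drug was present at harvest, nor whether the 2 libraries of a group came from separate cultures or selections, so the spread behind each p-value is that between these libraries and may be technical only.

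IGF2 is a secreted growth factor that signals mainly through the tyrosine kinase encoded by IGF1R and through one isoform of the insulin receptor encoded by INSR. The product of IGF2R, the cation-independent mannose 6-phosphate receptor, binds IGF2 and carries it to the lysosome without a kinase signal. The binding proteins hold insulin-like growth factors outside the cell, where they can withhold or deliver the ligand, and proteases that cleave them set the ligand free. Overexpression of IGF2 from its imprinted locus is a known feature of embryonal rhabdomyosarcoma, and IGF2 and IGFBP5 both act in muscle differentiation.

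The libraries held 58861281 to 67690557 reads over the genes of the table, and the 2 libraries of a group differed by more than sampling noise (chi-square per gene 1.61 in parental and 4.00 in resistant cells). Markers of the skeletal muscle lineage were well expressed, as the label of the cells has it. Of 12 such markers 10 were in the table (9 higher, 1 not past the threshold), with a summed level of 102508 to 102992 normalized counts in parental and 177233 to 182296 in resistant libraries, and the most abundant was CHRNA1, a subunit gene of the muscle acetylcholine receptor. MYF5 and MYF6 were not analysed here. Markers of other cell types were read beside them, since the binding protein genes are also expressed by stromal cells. Of 9 fibroblast markers 8 were in the table, and 5 of them rose and 1 fell. Their sum was 708441 to 714565 in parental and 510276 to 515009 in resistant libraries, most of it COL3A1, the marker that fell. The 5 that rose, given with the rest to complete the list, were COL1A1 (mean 40523 to 67584), FAP (33.2 to 160), COL1A2 (49.1 to 157), POSTN (12.3 to 103) and TCF21 (3.44 to 26.3). LUM (39.2 and 41.7) and PDGFRA (10.3 and 14.3) missed the threshold. Of 7 endothelial markers 3 were in the table (summed level 2673 to 2761 in parental and 4137 to 4369 in resistant libraries, 2 higher and 1 lower), led by EGFL7, and all 8 epithelial markers were (5182 to 5203 against 15016 to 15170, 4 higher and 1 lower), led by KRT18. Of 8 leukocyte markers 3 were in the table, led by CD14, with a summed level of 59.0 to 65.6 and 70.3 to 78.3 (1 higher, 1 lower). DCN, PECAM1, CDH5, VWF, KDR, PTPRC, CD3E, MS4A1 and SPI1 were not analysed here. The part of any other cell type in the results below was not tested.

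The comparison asked how transcripts of the axis differed between resistant and parental cells. IGFBP7, IGFBP5, IGFBP4 and IGFBP2 rose by more than 2-fold, IGF2, IGFBP6 and IGF1R rose by less, and IGF2R, IGFBP3 and INSR fell, INSR by more than 2-fold. With limma and Benjamini-Hochberg adjustment at 0.05, 7 of the 10 were called higher and 3 lower, in a table where 66.9% of 18330 tested genes passed, 32.7% as higher and 34.2% as lower. All 10 were also called in the authors' deposited table (56.6% of its genes), by edgeR's quasi-likelihood test (67.5%) and by DESeq2 (56.7%). Against a change of 1.2-fold 8 of the 10 were called (37.1% of all genes), and 8 with an assumed dispersion of 0.01 (43.3%). A call alone therefore sets the axis little apart, and the sizes carry the description. The median log2 fold change was 0.58 over the 10 genes and 0.0043 over all genes tested. Rises of at least 2-fold were called for 4 of the 10 genes and for 8.96% of all genes. The 10 genes were chosen with earlier results of these data known, so these figures are description and not a test. For all 10 genes the libraries of the groups did not overlap, which held for 82.1% of all genes tested. In bulk RNA, fewer cells of a type and less RNA per cell cannot be told apart. Standard deviations below are over n = 2 libraries in each group, and log2 fold changes are resistant minus parental on the log2(normalized count + 1) scale.

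**Figure D1:**
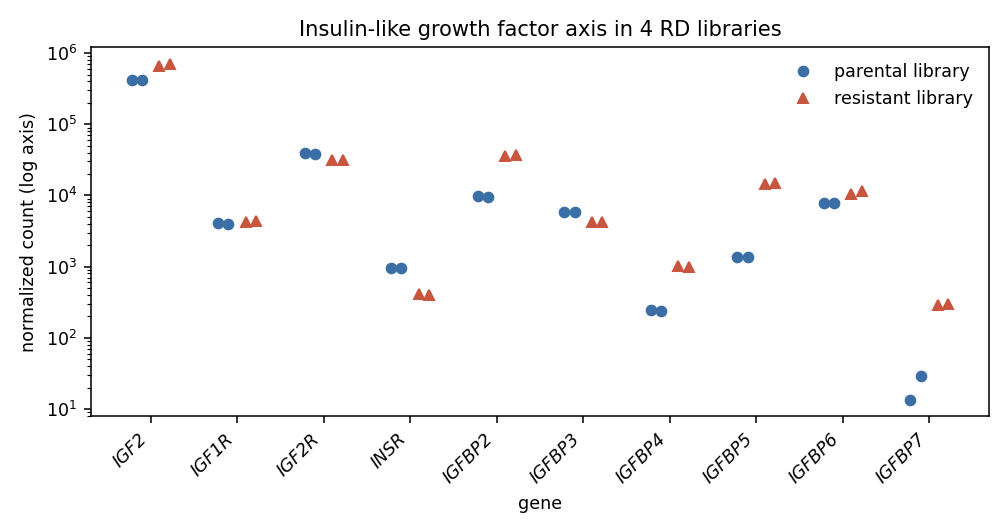
Normalized counts of the 10 genes (log axis) in each of the 2 parental (circles) and 2 resistant (triangles) libraries. The resistant libraries of IGFBP2, IGFBP4, IGFBP5 and IGFBP7 lie far above the parental ones, those of INSR lie below, and the groups of IGF1R lie close together.

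IGF2, the only insulin-like growth factor ligand measured, was already among the most abundant transcripts of parental cells. It had 425391 and 421719 normalized counts in the parental libraries and 655297 and 699588 in the resistant libraries. Both resistant libraries were above both parental ones, and the spread between the resistant pair was the wider. The means were 423555 ± 2597 and 677442 ± 31319 (SD), a log2 fold change of 0.68 (SE 0.03, limma adjusted p = 1.84e-17), or 1.60-fold. IGF2 ranked 3 among all genes by count in both parental libraries and 1 in both resistant libraries, with 0.650 and 0.645% of all reads in parental and 1.03 and 1.09% in resistant cells. A larger rise was found for 2674 other genes. IGF2 (ENSG00000167244) lies on the minus strand of chromosome 11 from 2129112 to 2149603 in GRCh38. GENCODE 29 annotates INS-IGF2 on the same strand over 20.9% of the exonic bases of IGF2, and a second IGF2 gene model over 73.7%. How reads in such shared exons were assigned is not given in the sources used here, so the absolute level of IGF2 is uncertain.

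IGF2-AS and H19, transcripts of the same imprinted locus, moved in the same direction at far lower levels. The wider region was mixed: of the 20 tested genes around IGF2, both of these included, 7 were called higher and 10 lower. The antisense transcript IGF2-AS had 1807 and 1828 normalized counts in parental and 2621 and 2626 in resistant cells, a log2 fold change of 0.53 (SE 0.04, limma adjusted p = 4.27e-11). IGF2 covers 11.6% of its exonic bases from the opposite strand, and no strand setting is given in the sources used here, so for that stretch the source of a read is uncertain. H19, the noncoding RNA that is expressed from the maternal copy of the locus, had 13 and 17 reads in parental and 51 and 43 in resistant libraries. The ratio of reads, scaled by library, was 3.24 (exact 95% interval 2.13 to 5.07, counting error only).

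The 3 receptor genes differed in direction. IGF1R, the signalling receptor, had 4106 and 3907 normalized counts in parental and 4257 and 4438 in resistant libraries. The higher parental library lay close under the lower resistant one. Its log2 fold change was 0.12 (SE 0.04, limma adjusted p = 0.0101), an increase of 8.52%, and its adjusted p was the highest of the 10 genes. Without parental replicate 2 it was 0.08 and no longer passed (limma adjusted p = 0.247), nor did it pass against a change of 1.2-fold (limma treat adjusted p = 1) or with an assumed dispersion of 0.01 between cultures (edgeR adjusted p = 0.539).

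IGF2R, the clearing receptor, had 38957 and 38781 normalized counts in parental and 31363 and 31611 in resistant libraries. The pairs were tight and stood apart. The log2 fold change was -0.30 (SE 0.03, limma adjusted p = 1.13e-10), and the call was lost against 1.2-fold (limma treat adjusted p = 0.163) and with the dispersion of 0.01 (edgeR adjusted p = 0.0785). INSR, the insulin receptor gene, fell the most of the receptors. It had 961 and 966 normalized counts in parental and 413 and 399 in resistant libraries, a log2 fold change of -1.24 (SE 0.07, limma adjusted p = 1.54e-14), so that parental cells had 2.37 times the resistant level. INSR stood at the 4.58th percentile of log2 fold changes over all tested genes. Counts per gene do not separate the isoforms of INSR.

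The binding protein genes held the largest changes of the axis, and those of IGFBP2 and IGFBP5 came from one locus. IGFBP5, a binding protein of muscle, bone and extracellular matrix, had 1360 and 1349 normalized counts in parental and 14532 and 14853 in resistant libraries. Each group was tight and the gap between them was 10.8-fold, a log2 fold change of 3.44 (SE 0.04, limma adjusted p = 4.43e-30), with 177 genes of larger rise. IGFBP2, a secreted binding protein of fetal tissues and many tumours, had 9736 and 9538 in parental and 35313 and 36868 in resistant libraries, a log2 fold change of 1.90 (SE 0.03, limma adjusted p = 1.10e-26). IGFBP2 (plus strand, chromosome 2 from 216632828 to 216664436) and IGFBP5 (minus strand, from 216672105 to 216695525) are neighbours that face each other tail to tail with 7.67 kb between them. The parental ratio of IGFBP2 to IGFBP5 per kilobase of exon was 9.61 ± 0.083, and the resistant ratio was 3.32 ± 0.050.

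IGFBP4, a mainly inhibitory binding protein, had 249 and 235 normalized counts in parental and 1024 and 997 in resistant libraries, and the groups were well separated. Its log2 fold change was 2.06 (SE 0.08, limma adjusted p = 3.13e-18), and the ratio of its reads was 4.17 (counting interval 3.78 to 4.61). IGFBP7, a matrix-associated family member that binds insulin-like growth factors weakly, was close to the lower end of the table in parental cells. It had 13.5 and 28.8 normalized counts there, from 14 and 29 reads, and 291 and 295 in resistant libraries. The parental libraries differed more from each other, relative to their level, than the resistant ones, and both were far below them. The log2 fold change was 3.82 (SE 0.24, limma adjusted p = 6.90e-14), and the ratio of reads was 13.9 (counting interval 10.2 to 19.4). POLR2B, a subunit gene of RNA polymerase II, covers 13.99% of the exonic bases of IGFBP7 from the opposite strand. POLR2B had 15160 and 14895 normalized counts in parental and 14486 and 14437 in resistant libraries (log2 fold change -0.06, SE 0.03, limma adjusted p = 0.100).

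IGFBP6 and IGFBP3 changed little beside these. IGFBP6, which prefers IGF2 over IGF1 as a ligand, had 7924 and 7850 normalized counts in parental and 10501 and 11492 in resistant libraries, a log2 fold change of 0.48 (SE 0.04, limma adjusted p = 5.61e-12). IGFBP3, the main carrier of circulating insulin-like growth factors, was the binding protein gene that fell. It had 5780 and 5756 in parental and 4173 and 4172 in resistant libraries, a log2 fold change of -0.47 (SE 0.04, limma adjusted p = 5.93e-12).

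The promoter windows of the 3 binding protein genes that rose by more than 2-fold and have an entry in the promoter table are shown for their sequence, since these genes moved together. They run from 250 bases before to 50 bases after the start site, 5′ to 3′ on the gene's strand, in RefSeq's GRCh38.p14. The windows are chr2:216633170-216633469 (plus strand) for IGFBP2, chr17:40443200-40443499 (plus strand) for IGFBP4 and chr2:216695500-216695799 (minus strand) for IGFBP5. Capitals mark CANNTG, the E-box read by myogenic and MYC-type factors, and TATAAA, one form of the TATA box, searched on both strands.
IGFBP2: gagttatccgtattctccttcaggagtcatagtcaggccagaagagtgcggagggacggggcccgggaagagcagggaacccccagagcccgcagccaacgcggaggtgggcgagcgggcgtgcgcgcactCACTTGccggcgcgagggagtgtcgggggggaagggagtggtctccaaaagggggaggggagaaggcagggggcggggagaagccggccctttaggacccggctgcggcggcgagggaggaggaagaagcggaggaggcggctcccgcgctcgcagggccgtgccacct
IGFBP4: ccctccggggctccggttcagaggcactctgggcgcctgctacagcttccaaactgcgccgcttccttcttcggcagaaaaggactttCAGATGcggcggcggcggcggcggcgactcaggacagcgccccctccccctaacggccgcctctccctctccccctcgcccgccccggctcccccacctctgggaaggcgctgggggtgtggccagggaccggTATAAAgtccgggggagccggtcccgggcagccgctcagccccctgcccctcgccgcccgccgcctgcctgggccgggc
IGFBP5: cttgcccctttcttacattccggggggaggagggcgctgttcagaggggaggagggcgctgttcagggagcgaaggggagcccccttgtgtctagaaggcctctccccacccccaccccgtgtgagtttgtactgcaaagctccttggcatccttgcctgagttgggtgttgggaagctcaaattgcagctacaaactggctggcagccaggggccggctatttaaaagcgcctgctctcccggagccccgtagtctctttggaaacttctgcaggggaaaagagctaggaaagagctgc
IGFBP2 holds 1 E-box (CACTTG, at -119 from the start site) and no TATAAA. IGFBP4 holds 1 E-box (CAGATG, at -162) and TATAAA at -29, and IGFBP5 holds neither in these exact letters. Near forms of TATAAA, such as tatttaaa in the IGFBP5 window, were not searched, so a TATA box in another form is not excluded. An E-box occurs in 68.7% and TATAAA in 11.5% of all 35116 promoter windows of this length, so the sharing of an E-box by IGFBP2 and IGFBP4 is common. Of the other genes of the axis with a window, IGF2R holds 5 E-boxes, of which 3 are CACGTG, the form bound by MYC with MAX that 7.26% of all windows hold. INSR and IGFBP6 hold CAGCTG (18.0% of windows), and IGF1R holds no E-box. IGFBP3, the binding protein gene that fell, holds 2 E-boxes (CAGGTG at -193 and CAGATG at -1), and IGFBP6, which rose, also holds 2. The start sites of the INSR and IGFBP6 windows lie 380 and 222 bases from the principal start site, so their matches may not describe the principal promoter. The windows of IGFBP2, IGFBP4 and IGFBP5 were 70.0, 74.0 and 59.0% G and C, against 79.7% for IGF1R. A match in these letters is a description of the sequence and not a measured site. IGFBP2 has 3 entries in the promoter table, and the window shown and searched is the one nearest to the principal start site. Windows of IGF2 and IGFBP7 were not used here.

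Levels of different genes were compared as normalized counts per kilobase of merged exons. In parental cells the order was IGF2 (60690 ± 372), IGFBP6 (5860 ± 39.0), IGF2R (2178 ± 6.99), IGFBP2 (2022 ± 29.4), IGFBP3 (1262 ± 3.64), IGF1R (287 ± 10.1), IGFBP5 (210.3 ± 1.24), IGFBP4 (110.0 ± 4.76), INSR (92.2 ± 0.358) and IGFBP7 (10.98 ± 5.60). In resistant cells IGFBP2 (7571 ± 231) and IGFBP5 (2281 ± 35.2) stood above IGF2R (1765 ± 9.80), and INSR (38.9 ± 0.972) was last, below IGFBP7 (152 ± 1.42). No pair of neighbours in either order overlapped between libraries, and the closest were IGFBP6 over IGFBP2 in resistant cells, at a ratio of 1.08, and IGF2R over IGFBP2 in parental cells, also at 1.08. The ratio of IGF1R to INSR per kilobase rose from 3.12 ± 0.122 to 8.03 ± 0.438, and that of IGF2R to IGF1R fell from 7.58 ± 0.242 to 5.66 ± 0.136, ratios given as description with no test. With the longest annotated transcript as the length, IGFBP3 stood above IGFBP2 in parental cells, with 20.6 and 18.8% of the binding protein sum. At that length the parental libraries of IGFBP4 (113.4 and 106.6) and INSR (107.3 and 107.9) overlapped.

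Summed per kilobase, the 6 binding protein genes reached 9525 and 9423 in parental libraries and 18994 and 20096 in resistant libraries, 2.06 times as much. The make-up of that sum changed. IGFBP6 accounted for 61.8% ± 0.061 in parental and 41.8% ± 1.00 in resistant cells, and IGFBP3 for 13.3% ± 0.063 and 4.67% ± 0.187. IGFBP2 went from 21.3% ± 0.147 to 38.7% ± 0.365 and IGFBP5 from 2.22% ± 0.0039 to 11.7% ± 0.286. IGFBP4 (1.16% ± 0.041 and 2.35% ± 0.138) and IGFBP7 (0.116% ± 0.060 and 0.777% ± 0.024) stayed small parts. Per kilobase, the ligand gene IGF2 was 6.41 ± 0.0097 times the binding protein sum in parental and 4.97 ± 0.032 times in resistant cells. This ratio carries the uncertainty of the IGF2 level given above. With the longest annotated transcript as the length, it was 6.53 ± 0.0059 and 5.44 ± 0.038. The resistant sum was then 1.92 times the parental one, and the IGFBP3 share was 20.6% in parental and 7.77% in resistant cells. These shares were computed from counts of transcripts and say nothing of protein.

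**Figure D2:**
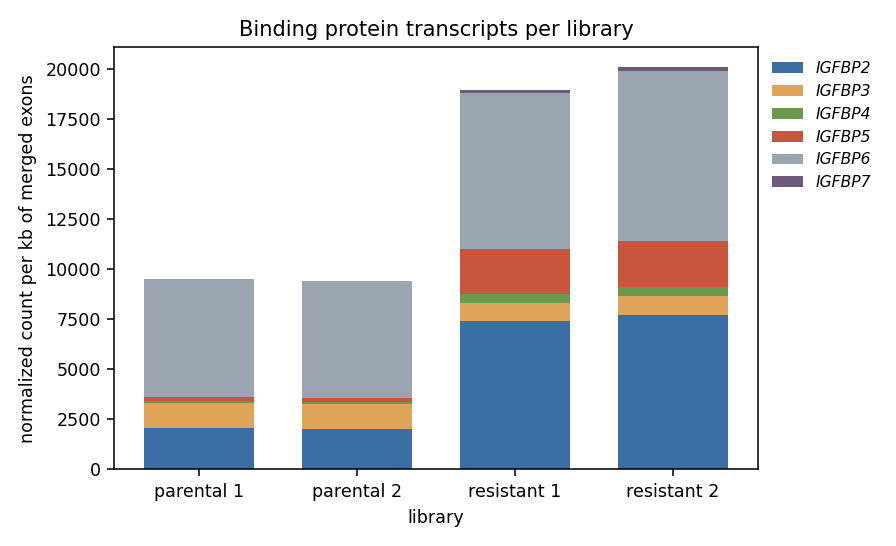
Normalized counts per kilobase of merged exons of the 6 binding protein genes, stacked for each of the 4 libraries. The total was 9525 and 9423 in parental and 18994 and 20096 in resistant libraries. IGFBP2 gained the most (mean 2022 to 7571), followed by IGFBP6 (5860 to 8170) and IGFBP5 (210 to 2281), while IGFBP3 fell.

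Several of the genes lie in stretches of chromosome whose other genes shifted the same way, and these values stand beside the calls. For each gene the 10 tested genes on either side were read. Over all tested genes 66.9% were called, 32.7% as higher and 34.2% as lower. The windows were set by gene order and differed in span. They covered 14.7 megabases for IGFBP7, 7.83 for IGF1R, 7.42 for IGF2R and 6.14 for IGFBP3. The others ran from 1.14 (IGFBP6) to 2.93 megabases (IGFBP2). Around IGFBP4 on chromosome 17 (40443461 to 40457731), 17 of 20 neighbours were called and all 17 were higher, with a median of 1.03. They include TOP2A, the DNA topoisomerase gene 25.5 kb away (1.60, SE 0.03). Relative to that median IGFBP4 was higher by 1.03, and 1 neighbour, KRTAP2-3, rose more. Around INSR on chromosome 19 (7112255 to 7294034), 15 of 19 called neighbours were lower, with a median of -0.50, and relative to it INSR was at -0.75. CAMSAP3 was the neighbour that fell more than INSR. Around IGFBP2 and IGFBP5, 13 of 16 called neighbours were higher in either window, with a median of 0.38. The windows share most of their genes, and each counts the other gene of the pair among its higher neighbours. Relative to it IGFBP2 was at 1.52 and IGFBP5 at 3.06, above each of its 20 neighbours.

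The remaining windows were closer to 0. Medians were 0.31 around IGFBP6 (chromosome 12 from 53097436 to 53102345), -0.22 around IGFBP3 (chromosome 7 from 45912245 to 45921874) and -0.13 around IGF2R (chromosome 6 from 159969099 to 160113507). With these removed, the values were 0.16 for IGFBP6, -0.25 for IGFBP3 and -0.18 for IGF2R, and all 3 passed at this width with p-values that take the median as known. Medians were 0.06 around IGF2, 0.01 around IGF1R (chromosome 15 from 98648539 to 98964530) and -0.03 around IGFBP7 (chromosome 4 from 57030773 to 57110385). IGFBP7 was above each of its 20 neighbours. These differences depend on the width of the window, and at the other widths they are values with no test. With 5 genes on either side the median around IGFBP6 was 0.72, above the gene itself, so that the difference turned to -0.25, and with 20 it was 0.11. For IGF2R the difference was -0.13 with 5 genes and -0.03 with 20, where the median of -0.28 was close to the gene's own change. For IGF1R it was 0.39 and 0.05, and for IGF2 it was 0.17 and 0.94, from medians of 0.51 and -0.26. IGFBP6 was the 1 gene of the 10 whose sign turned at either width. The differences of IGFBP4 (0.84 and 1.25), INSR (-0.66 and -0.72), IGFBP3 (-0.25 and -0.27), IGFBP2 (1.32 and 1.64), IGFBP5 (2.86 and 3.19) and IGFBP7 (3.87 at both) moved less in proportion. The copy number of these regions was not measured, and its part in the results was not tested.

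**Figure D3:**
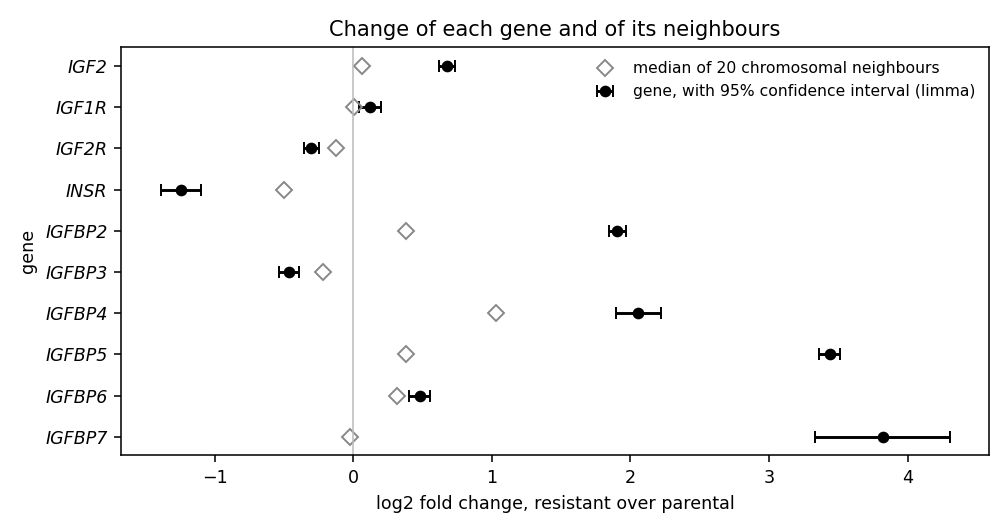
Log2 fold change (resistant over parental) of each of the 10 genes with its 95% confidence interval from limma (filled circles), and the median of its 20 chromosomal neighbours (open diamonds). IGFBP5 and IGFBP7 lie far from their neighbours' medians of 0.38 and -0.03, while IGFBP4 lies 1.03 above a median of 1.03.

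**Figure D4:**
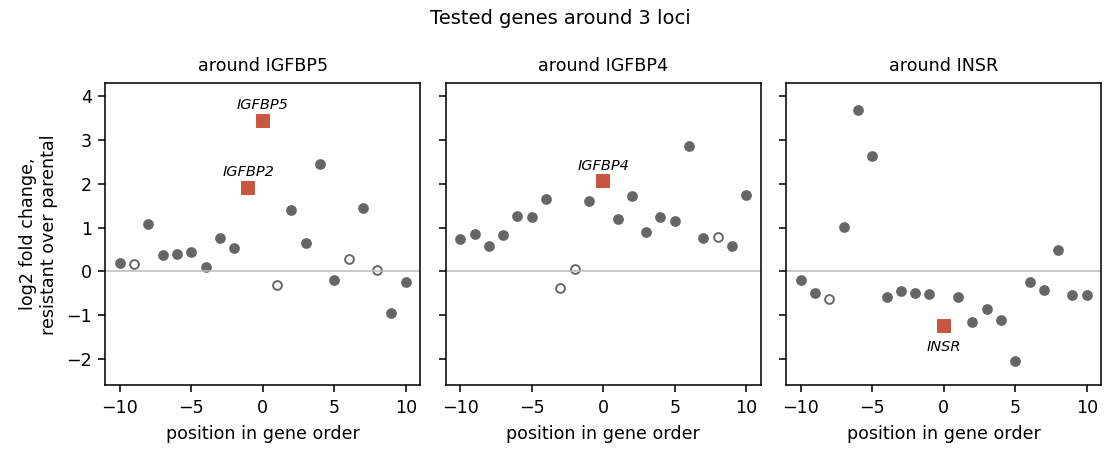
Log2 fold change of the 10 tested genes on either side of IGFBP5, IGFBP4 and INSR, in gene order along the chromosome. Filled circles passed the limma test, open circles did not, and squares are genes of the axis. Around IGFBP4 all 17 called neighbours are above 0, and around INSR 15 of 19 called neighbours are below 0.

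The other genes of the pathway were read from 8 lists of known components, of which 124 of 136 genes were in the table. Of these, 45 rose, 61 fell and 18 did not pass, together 85.5% called with a median of -0.09. Over all genes 66.9% were called. The list of further ligands, receptors and binding proteins had 2 of its 7 genes in the table. IGFBPL1, a relative of the binding proteins, fell (-0.54, SE 0.06), and the insulin receptor-related gene INSRR had 26.4 ± 6.41 normalized counts in parental and 17.7 ± 0.581 in resistant cells, short of the threshold. IGF1, INS, INS-IGF2, IGFBP1 and IGFALS were not analysed here.

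All 14 proteases that cleave binding proteins and their inhibitors were measured, and 8 rose and 6 fell (median 0.21). PAPPA, the metalloprotease pregnancy-associated plasma protein A that cleaves IGFBP4 and IGFBP5, had 464 and 472 normalized counts in parental and 2997 and 3085 in resistant libraries. It rose with its substrates' genes, by 2.70 (SE 0.06, limma adjusted p = 2.77e-24). STC2, a secreted inhibitor of that protease, fell from 64638 ± 184 to 42579 ± 757 (-0.60, SE 0.03). Its paralog STC1, also an inhibitor, rose (0.39, SE 0.03), and PAPPA2, a protease of IGFBP3 and IGFBP5, fell from 84.3 ± 3.05 to 20.2 ± 2.52 (-2.02, SE 0.25), this pair chosen with values in view. The urokinase gene PLAU rose (0.63, SE 0.03) and the matrix metalloprotease gene MMP2 fell (-0.63, SE 0.03). With the neighbour median removed, PLAU was at 0.20 and MMP2 at -0.47.

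Of 12 partners that bind the binding proteins at the cell surface, in the matrix or in the cell, 2 rose, 8 fell and 2 missed the threshold (median -0.29). The matrix genes THBS1 (thrombospondin, -2.58, SE 0.04) and SPP1 (osteopontin, -1.79, SE 0.06) fell, as did FHL2 (-0.95, SE 0.04), whose product binds IGFBP5 in the nucleus, and the integrin gene ITGB1 (-0.78, SE 0.03). With the neighbour median removed, ITGB1 was at -0.02 and did not pass. LRP1, a receptor that binds IGFBP3, had 15953 ± 508 normalized counts in parental and 15962 ± 326 in resistant cells, and it and VTN, both named because the count is small and with their values known, were the 2 short of the threshold.

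Genes that act on IGF2 transcription, imprinting, messenger RNA or prohormone cleavage numbered 13 in the table, of which 7 rose, 3 fell and 3 missed the threshold (median 0.12). LIN28B, an RNA-binding protein of embryonic cells, rose from 2667 ± 22.8 to 6550 ± 475 (1.29, SE 0.04), HMGA2, a chromatin protein, rose by 1.02 (SE 0.03, and 0.37 with the neighbour median removed) and IGF2BP1, which binds the IGF2 messenger, by 0.37 (SE 0.03). PCSK5, a proprotein convertase gene, fell from 952 ± 4.90 to 139 ± 13.7 (-2.78, SE 0.09). The IGF2 messenger-binding genes IGF2BP2 (-0.06, SE 0.03, not past the threshold) and IGF2BP3 (-0.11, SE 0.03, lower) are added with their values known.

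Receptor substrates and adaptors were mostly lower. Of 17 in the table, 3 rose, 13 fell and 1 missed the threshold (median -0.36). GRB2, which links receptors to RAS, fell from 17493 ± 176 to 5968 ± 117 (-1.55, SE 0.03), as did the adaptor genes SH2B2 (-0.90, SE 0.05) and CRK (-0.57, SE 0.03) and the phosphatase gene PTPN1 (-0.59, SE 0.03). With the median of 20 chromosomal neighbours removed, GRB2 was at -0.44, and CRK was at -0.04 and did not pass. The 3 that rose were IRS1 (0.47, SE 0.03), PTPN11 and RACK1, and the paralog IRS2 fell (-0.84, SE 0.09), these 4 picked with their values known. IRS1 had 9817 ± 91.4 against 13566 ± 676 normalized counts, and IRS2 533 ± 44.2 against 298 ± 31.7.

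In the PI3K, AKT and mTOR list 30 of 31 genes were in the table, and 8 rose, 15 fell and 7 missed the threshold (median -0.11). The regulatory subunit gene PIK3R1 rose from 1336 ± 47.1 to 2843 ± 136 (1.09, SE 0.05), and the catalytic subunit gene PIK3CD fell from 366 ± 15.7 to 59.0 ± 6.96 (-2.62, SE 0.14). EIF4EBP2, a repressor of translation downstream of mTOR, rose by 0.63 (SE 0.03), and the kinase gene GSK3A fell (-0.63, SE 0.03). With the neighbour median removed, EIF4EBP2 was at 0.02 and GSK3A at 0.02, and neither passed. MTOR itself, chosen with its value in view, had 8212 ± 276 normalized counts in parental and 8124 ± 37.7 in resistant cells, short of the threshold.

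Of 18 FOXO factors and targets, which AKT holds in check, 8 rose, 8 fell and 2 missed the threshold (median 0.03). FOXO1 rose from 465 ± 11.2 to 1052 ± 7.26 (1.17, SE 0.07) and its target SESN3 from 77.4 ± 6.79 to 524 ± 5.2 (2.75, SE 0.12), while KLF6 (-1.67, SE 0.04) and CITED2 (-1.04, SE 0.04) fell. Of 18 genes of mannose 6-phosphate sorting, the lysosomal route that IGF2R serves, 9 rose, 7 fell and 2 missed the threshold (median 0.08). GNPTAB, which makes the mannose 6-phosphate mark, rose (0.64, SE 0.04), and the sorting adaptor genes GGA3 (-1.37, SE 0.04), AP1S1 (-0.66, SE 0.03) and PLIN3 (-0.57, SE 0.03) fell. With the neighbour median removed, GGA3 was at -0.17. M6PR, the other mannose 6-phosphate receptor gene, rose (0.43, SE 0.03) where IGF2R fell, and is a gene picked with its value known.

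**Figure D5:**
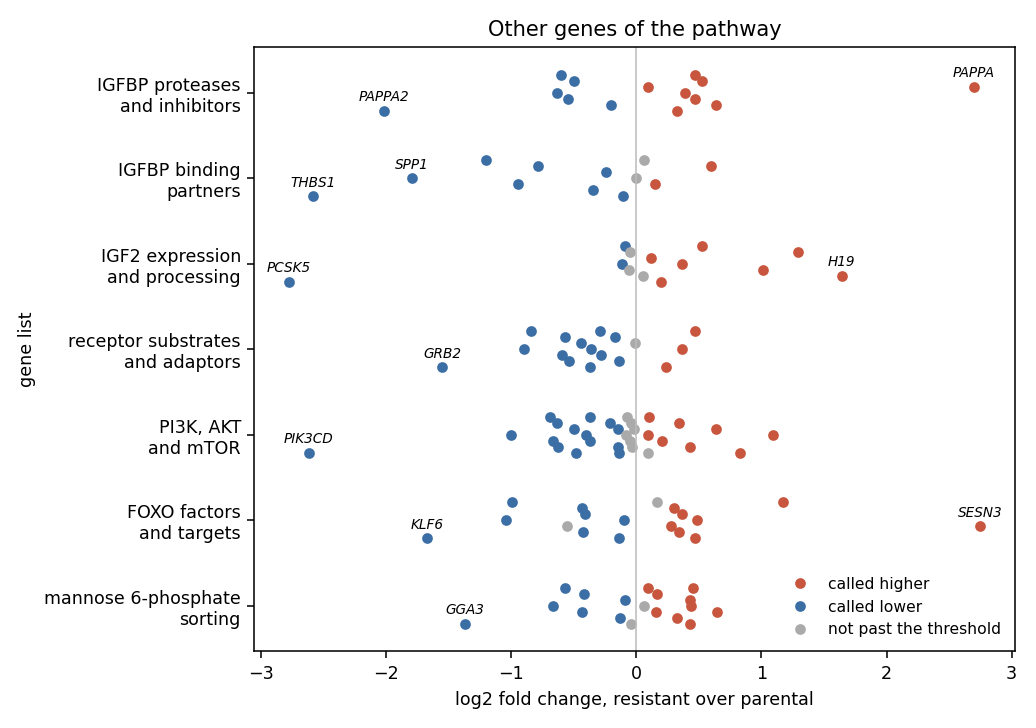
Log2 fold change (resistant over parental) of the genes of 7 lists of pathway components, 1 point per gene, coloured by whether limma called it higher, lower or neither. PAPPA and SESN3 lie farthest to the right and PCSK5, PIK3CD and THBS1 farthest to the left, and points of receptor substrates and adaptors lie mostly below 0.

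The tested genes with a mean of at least 100 whose 4 log2 values, centred on their own mean, lay nearest to those of IGF2 were ADCK5, SPPL2B and LRP5, at distances of 0.017, 0.022 and 0.023. LRP5 had 9709 and 9729 normalized counts in parental and 14835 and 16144 in resistant libraries. MYBBP1A, SNF8 and DBR1 were nearest to IGF1R (0.012 to 0.020), and NEFH, MAN1A1 and ST6GALNAC3 to IGFBP5 (0.070 to 0.102). With 4 libraries in 2 groups, this likeness is mostly a like fold change.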

How the data were processed

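Poly(A)-selected RNA of 4 libraries was read from the deposited table, with groups and replicate numbers from the sample titles. The submitters' processing notes list build GRCh38, STAR 2.5.2b, Subread 1.5.2 (featureCounts), bcl2fastq 2.17 and DESeq2. Neither an annotation nor a setting for strand is given in the sources used here. Each deposited library column is a signal, here called normalized count: 100% of its values were whole multiples of a step particular to the library (tolerance 0.01), as counts scaled by a size factor are. The log2 fold change and p-value columns were deposited by the authors and served as an alternative only. The smallest mean in the table is 9.98.

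Values were taken to log2 after adding 1 and modelled by group with limma 3.58.1 (lmFit, then eBayes with trend) in R 4.3.3, two-sided, with Benjamini-Hochberg adjustment over all 18330 genes that had at least 10 in at least 2 libraries. With 2 values per group, an exact permutation test cannot pass 0.05, so none was run. The common dispersion on recovered reads was 0.000566 (edgeR 4.0.16), a coefficient of variation of 2.38%. Alternatives were other pseudocounts, filters and scalings, edgeR and DESeq2 1.42.0 on recovered reads, a fixed dispersion, limma treat, a replicate block, each library left out and removal of the neighbour median. Scripts were tested on simulated data. Positions, exon lengths and overlaps came from GENCODE 29 (GRCh38), promoters from RefSeq (GRCh38.p14), where 8 of the 10 genes matched by symbol. A planned comparison of protein sequences was not run.

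The 10 genes and the lists were chosen with earlier results of these data known. Named genes are the 10, up to 4 genes per list, taken by lowest adjusted p, the most abundant marker of each cell type and the 3 genes nearest to IGF2, IGF1R and IGFBP5 in pattern. Others are marked in the text, and some genes counted in the lists are not reported here by name. Counting intervals are exact binomial at 95%.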

Additional observations from a re-analysis of the deposited data

How the results depend on the processing

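The 10 genes of the axis kept their direction under the 18 alternatives to the fit, neighbours removed at 10 on either side included, and 8 of them kept their call under each. With 5 neighbours on either side IGFBP6 turned to -0.25. IGF1R and IGF2R lost theirs under the settings given with their results. The fold change of IGF2 ran from 0.61 to 0.72 and that of IGFBP5 from 3.06 to 3.47 on the log2 scale. Over all genes, 7943 were called with the dispersion fixed at 0.01 and 6794 with limma treat against 1.2-fold, in place of 12271. With the dispersion fixed at 0.01, 73 of the 124 pathway genes were called, against 43.3% of all genes. Among them were 6 of 13 in the IGF2 expression list and 15 of 30 in PI3K, AKT and mTOR. Mannose 6-phosphate sorting had 10 of 18, and the FOXO list 12 of 18. Proteases and inhibitors had 11 of 14, substrates and adaptors 11 of 17 and binding partners 7 of 12. With treat, 69 of the 124 pathway genes were called, against 37.1% of all genes. They included 6 of 12 binding partners, 6 of 13 in the IGF2 expression list and 15 of 30 in PI3K, AKT and mTOR. The FOXO list and mannose 6-phosphate sorting had 10 of 18 each. Proteases and inhibitors had 10 of 14 and substrates and adaptors 11 of 17. Both settings ask for more than the spread between these libraries. GSK3A turned to 0.019 with the neighbour median removed. Differences between the replicates of a group were hardly correlated between the groups (-0.03). The labels do not say whether shared replicate numbers pair the libraries, and this value cannot show it. The fit with the replicate block called 12144 genes, 7 of the 10 higher and 3 lower. Depth limits IGFBP7 and H19, with 43 and 30 parental reads.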
